A study of Homo sapiens with 3 samples.

Results

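The actin, contractile and bundling genes described here are 10 genes taken by symbol from an mRNA sequencing of 3 hepatocellular carcinoma (HCC) cell lines, out of 16149 genes that were listed in 1 library or more. They are the actins ACTB, ACTG1 and ACTA2, the filament-binding genes TPM1, TPM2, CALD1, CNN1 and TAGLN, the myosin light chain gene MYL9 and the bundling gene FSCN1. Of these, 9 were listed in the parent and 8 in each subclone, and 8 had a mean of at least 1 RPKM (a read count divided by gene length and library total) over the 3 libraries. The rule used names and not measured values, but the genes were chosen with earlier results of these data known.

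The parent is labelled HCCLM3, a human HCC line, with low metastasis ability, while the paper describes the parental cells as HCCLM3-R, a derivative that makes red fluorescent protein, and gives them a high metastatic potential. Subclone 1 is labelled as more metastatic and specific to lung. Subclone 2 is labelled as metastatic to lung and to celiac lymph node. All were grown in DMEM without a treatment named in the labels, and the study's monoclonal lines were grown from single cells of lung or lymph node metastases of nude mice, without saying which of them were sequenced. Each line had 1 library, so that each subclone stands for 1 culture, no spread between replicates is known, and no difference between cell lines was tested.

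The libraries of the parent, subclone 1 and subclone 2 held 4488825, 4609696 and 4725150 reads, recovered from the whole-number steps of the RPKM. The 95% intervals given below are Poisson intervals for levels and Clopper-Pearson intervals for folds. They cover counting error only and compare libraries, not conditions. A gene was called higher or lower at 2-fold or more on the scale of log2 of (RPKM + 0.1), which understates the ratio of low genes. Of the 9 hepatocyte markers all were listed in at least 1 library and 6 reached 1 RPKM, with summed levels of 24.5 RPKM in the parent, 113 RPKM in subclone 1 and 106 RPKM in subclone 2, and ALB itself had 2.46, 49.5 and 68.8 RPKM. None of the 11 smooth muscle and pericyte markers reached 1 RPKM.

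Actin forms filaments from a soluble monomer. Every cell makes the cytoplasmic β and γ actins from ACTB and ACTG1, while ACTA2 encodes the smooth muscle α-actin that marks smooth muscle and myofibroblasts. Tropomyosins lie along the filament and set which proteins may bind it, caldesmon and calponin restrain the myosin motor, transgelin crosslinks filaments, MYL9 is a regulatory light chain of non-muscle and smooth muscle myosin, and fascin packs filaments into the straight bundles of filopodia. In liver, high ACTA2, TAGLN and CNN1 are known from activated stellate cells and vessel walls, not from hepatocytes.

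The 2 cytoplasmic actins are shown first by the start of their coding sequences, since this is where their proteins differ most and since reads of near-identical genes can be split between them. Each has 1125 coding bases, of which 1027 are the same (91.3%). The first 60 coding bases from the GENCODE transcripts (GRCh38, minus strand for both) follow, with the 10 positions that differ in capitals. The ACTB stretch is at chr7:5529598-5529657 and that of ACTG1 at chr17:81512295-81512354.
ACTB: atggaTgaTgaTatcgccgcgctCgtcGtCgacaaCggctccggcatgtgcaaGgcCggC
ACTG1: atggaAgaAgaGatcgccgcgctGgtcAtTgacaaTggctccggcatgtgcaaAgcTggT
Of all stretches of 50 bases in the ACTB transcript, 0.534% also occur in ACTG1 transcripts and 10.3% occur in transcripts of any other gene, chiefly the pseudogene ACTBP2 and the POTE genes with an actin part. For ACTG1 the share with any other gene was 3.58%, and for FSCN1 it was 6.60%, all with its pseudogene FSCN1P1. The principal transcripts of the other 7 genes shared no stretch of 50 bases, read on the transcript strand only, with a transcript of another gene. For some this transcript is not of the length behind the RPKM, such as 1049 against 1797 bases for TPM1. The handling of reads that fit several genes is not given in the sources used here, so the levels of ACTB, ACTG1 and FSCN1 may hold or lack some such reads.

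The cytoplasmic actins were abundant and close to even in all 3 cell lines. ACTB stood at 3189 RPKM (26513 reads, interval 3151 to 3228) for the parent, at 3496 RPKM (29844 reads, interval 3456 to 3536) for subclone 1, and at 3205 RPKM (28045 reads, interval 3167 to 3243) for subclone 2, and ranked 4 by RPKM in each library. Subclone 1 was highest and its interval did not meet those of the others. Relative to the parent the fold was 1.10 for subclone 1 (1.08 to 1.11), while for subclone 2 it was 1.00 (0.988 to 1.02), not distinguished from the parent. In such bulk RNA, fewer cells with a transcript and less of it per cell cannot be told apart. ACTB alone took 0.591%, 0.647% and 0.594% of the reads of the parent, subclone 1 and subclone 2.

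ACTG1 stood at 874 RPKM (8332 reads, interval 856 to 893) for the parent, at 832 RPKM (8140 reads, interval 814 to 850) for subclone 1, and at 760 RPKM (7619 reads, interval 743 to 777) for subclone 2. It was highest in the parent and lowest in subclone 2, with none of the 3 intervals overlapping. Relative to the parent the fold was 0.951 for subclone 1 (0.923 to 0.981) and 0.869 for subclone 2 (0.842 to 0.896). The balance between the β and γ actins does not depend on the scaling of a library, and it differed between the parent and both subclones. The RPKM of ACTB was 3.65 times that of ACTG1 in the parent, and it was 4.20 times in subclone 1 and 4.22 times in subclone 2. This ratio was 1.15-fold above the parent's in subclone 1 (1.11 to 1.19) and 1.16-fold higher in subclone 2 (1.12 to 1.20). Between the subclones it differed by 1.00-fold (0.969 to 1.04), within counting error.

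The muscle actins were nearly or wholly absent from the lists. ACTA2 was not listed in any library. Had it the 1349 bases of its principal GENCODE transcript, the 3 reads that a count of 0 allows would be 0.495, 0.482 and 0.471 RPKM in the parent, subclone 1 and subclone 2. ACTA2 overlaps FAS and STAMBPL1 on the other strand, which had 0.323 to 0.461 RPKM and 4.32 to 6.98 RPKM, and whether the counting used strand is not given in the sources used here. ACTC1 and ACTG2 were also not listed, and ACTA1, the skeletal muscle actin, had 0.443 RPKM in the parent (3 reads), 0.144 RPKM in subclone 1 (1 read) and was not listed in subclone 2. ACTB therefore held 78.5% of the summed RPKM of the 6 actin genes for the parent library and 80.8% for each subclone. Of 6 near-identical actin copies, 2 were listed, namely POTEF with 0.0488 RPKM and ACTBL2 with 0.0752 RPKM, both in subclone 2, and POTEE, POTEI, POTEJ and POTEKP were not.

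**Figure D1:**
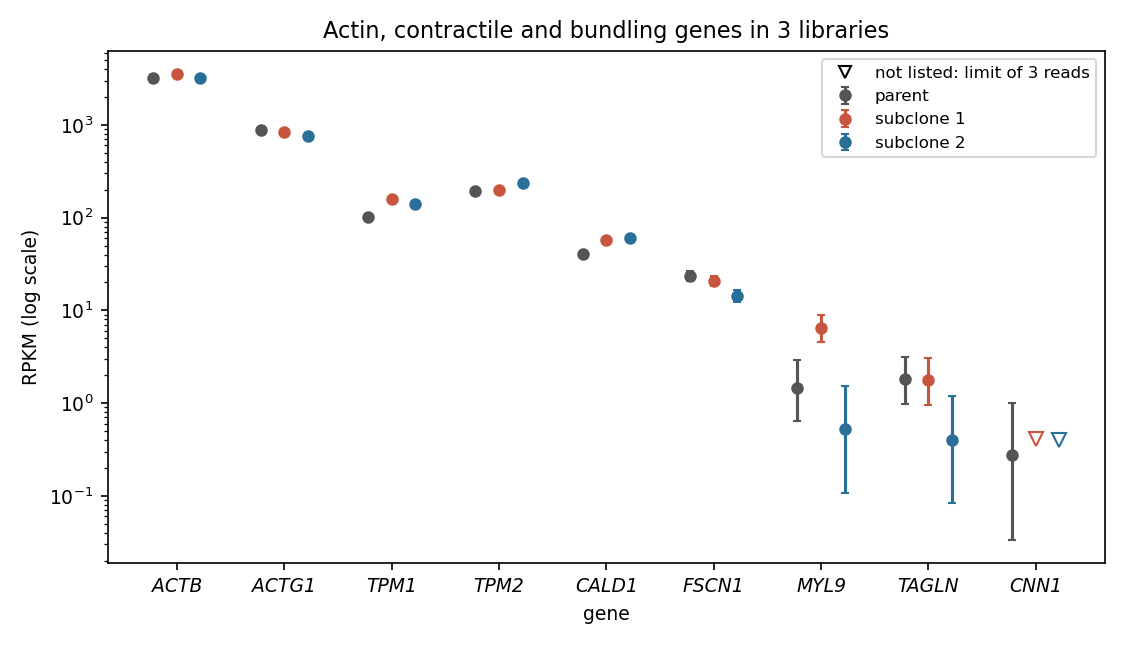
Level of 9 genes in the parent, subclone 1 and subclone 2, in RPKM on a log axis, with 95% Poisson intervals of the recovered reads, and open triangles at the limit of 3 reads where a gene was not listed. Levels span from 3496 RPKM for ACTB down to 0.279 RPKM for CNN1, and for MYL9 the interval of subclone 1 (4.51 to 8.92 RPKM) lies above those of the other libraries. ACTA2, listed in no library, is left out.

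The smooth muscle genes of the group were scarce. TAGLN, which encodes transgelin, stood at 1.84 RPKM (13 reads, interval 0.980 to 3.15) for the parent, at 1.79 RPKM (13 reads, interval 0.954 to 3.06) for subclone 1, and at 0.403 RPKM (3 reads, interval 0.0832 to 1.18) for subclone 2. Subclone 2 was lowest, at 0.219 times the parent (0.0401 to 0.798) and 0.225 times subclone 1 (0.0412 to 0.819), but its level interval overlapped those of the other libraries. TAGLN overlaps PCSK7 on the other strand, which had 192, 207 and 208 reads in the parent, subclone 1 and subclone 2 and levels of 12.2, 12.8 and 12.6 RPKM.

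MYL9 stood at 1.47 RPKM (8 reads, interval 0.635 to 2.90) for the parent, at 6.44 RPKM (36 reads, interval 4.51 to 8.92) for subclone 1, and at 0.524 RPKM (3 reads, interval 0.108 to 1.53) for subclone 2. Subclone 1 stood apart from both other libraries, whose intervals overlapped. Its fold over the parent was 4.38 (2.003 to 10.9), at percentile 98.8 of the 11370 genes with a mean of at least 1 RPKM. MYL9 reached that mean through subclone 1, so that this percentile is not independent of the filter. Subclone 2 was at 0.356 times the parent (0.0609 to 1.48), a difference not detectable at this depth, and at 0.0813 times subclone 1 (0.0160 to 0.257).

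CNN1, the smooth muscle calponin, had 0.279 RPKM from 2 reads in the parent and was not listed in either subclone, where 3 reads would be 0.407 and 0.397 RPKM, so that no fold can be given. The same libraries held the ubiquitous relatives of these genes at far higher levels per length. MYL12A and MYL12B, which encode the other regulatory light chains, had 231 and 363 RPKM in the parent, 277 and 433 RPKM in subclone 1, and 281 and 411 RPKM in subclone 2. MYL9 thus held 0.247%, 0.900% and 0.0757% of the summed RPKM of these 3 light chain genes. TAGLN2 had 258, 418 and 458 RPKM and TAGLN3 at most 0.148 RPKM. CNN2 had 91.2, 104 and 109 RPKM and CNN3 50.9, 43.9 and 38.0 RPKM.

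TAGLN2 differed from TAGLN in its order over the libraries. It was 1.62-fold higher in subclone 1 (1.52 to 1.72) and 1.77-fold higher in subclone 2 (1.67 to 1.89) than in the parent. The RPKM of TAGLN per RPKM of TAGLN2 was 0.124 times the parent's in subclone 2 (0.0226 to 0.451), whatever the scaling of the libraries. In the same way MYL9 per MYL12A was 3.66-fold above the parent's in subclone 1 (1.66 to 9.14), and per MYL12B it was 3.67-fold higher (1.67 to 9.17). CNN2 lay above the parent and CNN3 below it in both subclones, with folds over the parent of 1.14 (1.04 to 1.24) and 0.861 (0.754 to 0.984) in subclone 1 and of 1.20 (1.10 to 1.30) and 0.746 (0.650 to 0.856) in subclone 2.

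Markers of other cells were read beside MYL9 and TAGLN. The 11 smooth muscle and pericyte markers summed to 0.628 RPKM in the parent, 1.27 RPKM in subclone 1 and 0.795 RPKM in subclone 2, and DES, MYOCD, ACTG2 and PDGFRB were at 0 in each library. Of these 11, MYH11, LMOD1, MYOCD and ACTG2 also stand in the lists of relatives and of the actin system. MYH11, the smooth muscle myosin heavy chain, was not listed in the parent and had 0.125 and 0.0915 RPKM in subclones 1 and 2. Of 9 fibroblast markers, 6 were listed, with sums of 15.7, 31.2 and 24.3 RPKM, mostly from LUM, with COL3A1 at 4.42, 2.21 and 0.463 RPKM, while FAP, PDGFRA and POSTN were at 0. Of 5 endothelial markers all were listed, with sums of 5.11, 11.9 and 7.60 RPKM. Of 5 leukocyte markers 4 were listed, with sums of 76.0, 113 and 101 RPKM, of which CD68 made 75.3, 112 and 99.6 RPKM and PTPRC, the leukocyte common antigen, at most 0.0836 RPKM, and none of 3 red cell markers was listed. The sums of the smooth muscle, fibroblast, endothelial and leukocyte lists and that of the hepatocyte markers were all highest in subclone 1, as MYL9 was, and their part in its level was not tested. Single markers did not all share this order. Of those that reached 1 RPKM in a library, TF, FGB, DCN, LUM, PECAM1 and CD68 were highest in subclone 1. COL3A1 was highest in the parent, and ALB, AFP, APOB, HNF4A, KDR and ITGAM were highest in subclone 2.

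The tropomyosins were abundant, and TPM1 and TPM2 differed in their order over the libraries. TPM1 stood at 103 RPKM (829 reads, interval 95.9 to 110.0) for the parent, at 158 RPKM (1305 reads, interval 149 to 166) for subclone 1, and at 140.4 RPKM (1192 reads, interval 133 to 149) for subclone 2. Both subclones lay above the parent, by 1.53-fold (1.40 to 1.67) and 1.37-fold (1.25 to 1.49). Subclone 2 was at 0.891 times subclone 1 (0.823 to 0.965).

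TPM2 stood at 192 RPKM (1143 reads, interval 181 to 203) for the parent, at 197 RPKM (1207 reads, interval 186 to 209) for subclone 1, and at 239 RPKM (1498 reads, interval 227 to 251) for subclone 2. Subclone 2 was highest, 1.25-fold above the parent (1.15 to 1.35), and subclone 1 was not distinguished from the parent at this depth, with a fold of 1.03 (0.948 to 1.12) whose sign turned when libraries were divided by ACTB or GAPDH. TPM1 per TPM2 was 1.49-fold above the parent's in subclone 1 (1.32 to 1.68), and 1.10-fold higher in subclone 2 (0.974 to 1.24), which is within counting error. In subclone 2 this ratio was 0.736 times that of subclone 1 (0.659 to 0.822). The other tropomyosins were TPM3, with 179, 170.4 and 177 RPKM, and TPM4, with 358, 359 and 312 RPKM. TPM4 was the most abundant tropomyosin per length in all 3 libraries and TPM1 the least. The share of TPM1 in the summed RPKM of the 4 genes was 12.4%, 17.8% and 16.2% for the parent, subclone 1 and subclone 2, that of TPM2 23.1%, 22.3% and 27.5%, and that of TPM4 43.1%, 40.6% and 35.9%.

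**Figure D2:**
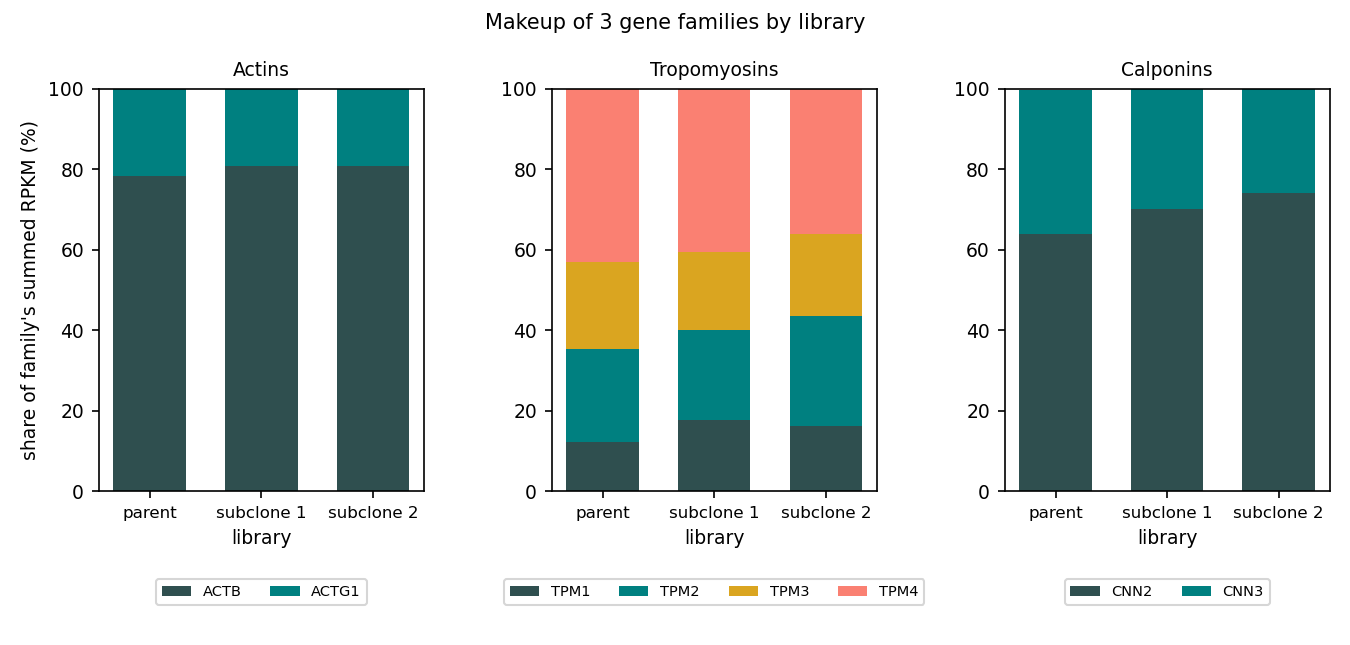
Share of each gene in the summed RPKM of its family (%), for the 3 libraries, as stacked bars from 0 to 100% and with the actins and CNN1 that hold under 1% left out. The parent has the lowest share of ACTB (78.5%, beside 80.8% in both subclones), of TPM1 (12.4%, beside 17.8% and 16.2%) and of CNN2 (64.1%, beside 70.3% and 74.2%).

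CALD1, which encodes caldesmon, an actin-binding inhibitor of myosin, was higher in both subclones. It stood at 41.0 RPKM (964 reads, interval 38.4 to 43.6) for the parent, at 56.9 RPKM (1375 reads, interval 53.9 to 60.0) for subclone 1, and at 60.0 RPKM (1486 reads, interval 57.0 to 63.1) for subclone 2. The parent was lowest and the intervals of the subclones overlapped. The folds over the parent were 1.39 (1.28 to 1.51) and 1.46 (1.35 to 1.59), and subclone 2 over subclone 1 was 1.05 (0.979 to 1.14). CALD1 per TPM1 was 0.906 times the parent's in subclone 1 (0.802 to 1.02) and 1.07 times in subclone 2 (0.949 to 1.21), so that a difference in their balance from the parent was not detectable. Between the subclones CALD1 per TPM1 was 1.18-fold higher in subclone 2 (1.06 to 1.32).

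FSCN1 was lower in subclone 2. It stood at 23.5 RPKM (298 reads, interval 21.0 to 26.4) for the parent, at 20.9 RPKM (272 reads, interval 18.5 to 23.6) for subclone 1, and at 14.3 RPKM (190 reads, interval 12.3 to 16.4) for subclone 2. The interval of subclone 2 did not meet those of the parent and subclone 1, which overlapped. Subclone 2 was at 0.606 times the parent (0.502 to 0.729), at percentile 4.63 of the ratios of the 11370 genes, and at 0.681 times subclone 1 (0.563 to 0.823). FSCN1 per ACTB was 0.811 times the parent's in subclone 1 (0.685 to 0.960) and 0.603 times in subclone 2 (0.499 to 0.726).

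**Figure D3:**
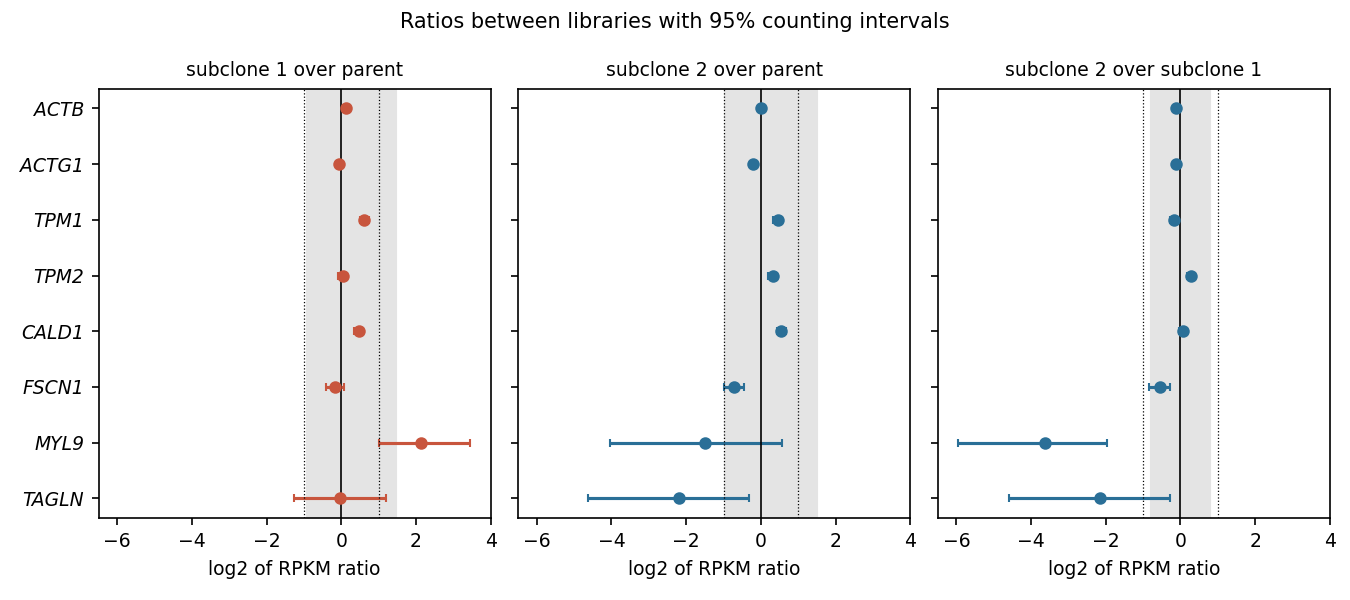
Log2 of the RPKM ratio between libraries for 8 genes, in 3 panels (subclone 1 over parent, subclone 2 over parent, subclone 2 over subclone 1), with 95% Clopper-Pearson intervals, the middle 95% of all genes with a mean of at least 1 RPKM that were above 0 in both libraries as a grey band, and dotted lines at 2-fold. MYL9 is right of the band in the first panel and left of it in the others, TAGLN is left of it in both panels of subclone 2, and ACTB, ACTG1, TPM1, TPM2, CALD1 and FSCN1 lie inside it in each panel.

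The calls at 2-fold were made by MYL9 and TAGLN. In subclone 1 over the parent 1 of 8 was called, MYL9 with a log2 ratio of 2.06, where 6.72% of the 11370 genes were called, 4.9% higher and 1.82% lower. In subclone 2 over the parent 2 of 8 were called lower, TAGLN with a log2 ratio of -1.95 and MYL9 with -1.33, where 7.49% of all were called, 2.16% lower and 5.33% higher. In subclone 2 over subclone 1 TAGLN and MYL9 were again called lower, with -1.91 and -3.39, where 2.81% of all were called, 1.39% lower and 1.42% higher. MYL9 reached the mean of 1 RPKM through subclone 1 (6.44 RPKM). TAGLN reached it through the parent and subclone 1 (1.84 and 1.79 RPKM). Both thus passed the filter through the libraries where they were high, and their calls in all 3 comparisons are not independent of it. The call of MYL9 in subclone 2 over the parent, from 3 against 8 reads, has an interval that includes 1 (0.0609 to 1.48). Both genes had 3 reads in subclone 2, so that these calls are a description of few reads, and no member with a mean of 5 RPKM or more was called in any of these comparisons. At a mean of 1 to 10 RPKM, where both lie, 11.1%, 12.0% and 5.21% of all genes were called, and above this 2.84%, 3.46% and 0.665%. The median log2 ratio of the 8 genes was 0.09, -0.10 and -0.15 in these comparisons, beside 0.00, 0.04 and 0.03 over all genes. Both comparisons with the parent share its library.

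By counting error more of them differed. In subclone 1 over the parent the interval lay above 1 for ACTB, MYL9, TPM1 and CALD1 and below 1 for ACTG1, thus for 5 of 8, where it excluded 1 for 39% of the 11245 genes with recovered reads (19.9% above and 19.1% below). In subclone 2 over the parent it lay above 1 for TPM1, TPM2 and CALD1 and below 1 for ACTG1, TAGLN and FSCN1, thus for 6 of 8 where it was 40.7% of all (22.8% above and 17.9% below). In subclone 2 over subclone 1 it lay above 1 for TPM2 and below 1 for ACTB, ACTG1, TAGLN, MYL9, TPM1 and FSCN1, thus for 7 of 8 where it was 20% of all (11.6% above and 8.43% below). An interval narrows as reads rise, and ACTB, ACTG1, TPM1, TPM2 and CALD1 had from 829 to 29844 reads. The shares over all genes, whatever their reads, are therefore not a like background. Of 10 common reference genes, described below, the interval lay above 1 for 4, 3 and 2 in these comparisons. It lay below 1 for 2, 4 and 1 of them.

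The order of levels was the same in the 3 libraries down to FSCN1, namely ACTB, ACTG1, TPM2, TPM1, CALD1 and FSCN1 by RPKM, and no neighbours in this order had overlapping intervals. Below them MYL9 and TAGLN could not be ordered in the parent or in subclone 2, where their intervals overlapped, while MYL9 lay above TAGLN in subclone 1. MYL9 had the widest range over the libraries, 3.39 on the log2 scale, followed by TAGLN with 1.95, FSCN1 with 0.72 and TPM1 with 0.62, and ACTB had the narrowest with 0.13. The 5 genes whose log2 ratios over the parent in the 2 subclones lay nearest to those of MYL9 were ITGB3, GPNMB, CLDN2, OLFML3 and LOC285419, at Euclidean distances of 0.56 to 0.98. ITGB3, an integrin β chain, had 0.819, 2.57 and 0.216 RPKM in the parent, subclone 1 and subclone 2. These distances rest on 3 libraries. MYL9 and ITGB3 reached the mean of 1 RPKM through subclone 1, as did LOC285419 (0.787, 1.92 and 0.381 RPKM). Their nearness is thus not independent of the filter. The ratio of MYL9 in subclone 2 over the parent rests on 3 against 8 reads.

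Other genes of the actin system were read from lists by function. None of 6 tested genes among 8 other myosin II chains passed 2-fold, but 5 had an interval above 1 in subclone 1 over the parent and 4 in subclone 2 over the parent, where 19.9% and 22.8% of all genes had one. The folds of these were small, from 1.10 to 1.28. They rest on high counts, such as 3311 to 3946 reads of MYH9, so that the share over all genes is not a like background. The medians of the 6 tested chains were 0.25 and 0.16. MYL6, the essential light chain and the most abundant of them, had 408, 522 and 506 RPKM, and MYL12B had 363, 433 and 411 RPKM. All 13 genes that act on myosin light chain phosphorylation were tested and none passed 2-fold in any comparison, with medians of -0.08 and 0.04 over the parent.

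The calponin and transgelin relatives numbered 6, of which 4 were tested. SMTN, the gene of smoothelin, was called in subclone 1 with a log2 ratio over the parent of 1.01, from 3.61 to 7.35 RPKM, and had 6.60 RPKM in subclone 2. LMOD1, a leiomodin, had at most 0.109 RPKM. SRF, the transcription factor that drives actin genes through the CArG box, had 8.36, 9.39 and 7.85 RPKM, its coactivator MKL1 10.3, 10.3 and 9.72 RPKM, and MKL2 6.67, 8.07 and 7.80 RPKM. MYOCD, the coactivator of smooth muscle, was not listed, nor were the later symbols MRTFA and MRTFB. None of the 3 listed genes of this list of 6 passed 2-fold in any comparison, and their medians over the parent were 0.17 in subclone 1 and -0.08 in subclone 2.

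RefSeq promoters were at hand for 6 of the 10 genes, and ACTB, TAGLN, MYL9 and FSCN1 had no entry. The CArG box, searched on both strands in the 250 bases before the start, was found in 1 of the 11 promoters of these genes, that of ACTG1, and in 1.16% of all 35116 promoters. The stretch around it (RefSeq, GRCh38.p14, chr17:81512869-81512908, minus strand) is shown because it was the only match among these promoters. The box is in capitals, with its first base 94 bases before the start, and a link to the level of ACTG1 was not tested.
ACTG1 promoter: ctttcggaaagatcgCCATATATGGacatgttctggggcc
A match is a match of letters and says nothing of binding in these cells.

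Among 16 other bundlers and crosslinkers 12 were tested. FLNC, the gene of filamin C, a crosslinker best known from muscle, had 23.4 RPKM in the parent, 39.8 RPKM in subclone 1 and 9.48 RPKM in subclone 2. It was called lower in subclone 2, with log2 ratios of -1.30 over the parent and -2.06 over subclone 1, and had an interval above 1 in subclone 1 over the parent (1.70-fold, 1.57 to 1.84). Its reads ran from 410 to 1677, and subclone 1 was highest, as it was for MYL9. SYNPO, the gene of synaptopodin, was 3.02-fold above the parent in subclone 1 (2.37 to 3.89), from 3.59 to 10.9 RPKM, with 6.74 RPKM in subclone 2. VIL1, which encodes the microvillus bundler villin, was 2.12-fold above the parent in subclone 2 (1.59 to 2.87), from 5.49 to 11.7 RPKM, with 7.63 RPKM in subclone 1. The most abundant of the list were FLNA with 334, 321 and 283 RPKM and ACTN4 with 230.1, 226 and 231 RPKM. The list's medians over the parent were -0.04 and -0.13.

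The 16 focal adhesion and stress fibre genes were all tested and none passed 2-fold, with medians over the parent of 0.09 and 0.11. TES had 323, 338 and 345 RPKM and PXN, the gene of paxillin, 96.6, 114 and 101 RPKM. Of 19 genes for monomer binding, severing and capping, LIMK2, a kinase that inactivates cofilin, alone passed 2-fold, in subclone 2 over each of the other libraries, with 2.03, 2.14 and 4.40 RPKM. LIMK2 had 35, 38 and 80 reads. Its folds were 2.17 over the parent (1.44 to 3.33) and 2.05 over subclone 1 (1.38 to 3.11), both near the threshold. The medians of the 19 genes over the parent were 0.14 and 0.15. TMSB10, which sequesters actin monomer, had 1642, 1426 and 1331 RPKM beside 846, 880.0 and 899.8 RPKM of PFN1, the gene of profilin. No gene among the 19 tested of 22 nucleators passed 2-fold, with medians of 0.06 in both subclones over the parent, and ARPC3 and ARPC1B of the Arp2/3 complex had 384, 449 and 443 RPKM and 341, 366 and 364 RPKM.

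The membrane linkers differed among themselves. MSN, the gene of moesin, was highest in the parent with 369.9 RPKM and had 304 and 261 RPKM in subclones 1 and 2, at 0.822 (0.793 to 0.852) and 0.706 times the parent (0.681 to 0.733). EZR, the gene of ezrin, ran the other way with 117, 129 and 141 RPKM, and RDX, the gene of radixin, had 60.2, 89.9 and 67.2 RPKM. The others were ANLN with 95.4, 92.2 and 101 RPKM, SPTAN1 with 52.6, 45.2 and 42.2 RPKM and SPTBN1 with 79.4, 69.2 and 60.8 RPKM. The median of the 6 over the parent was -0.12 in both subclones, and none passed 2-fold.

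**Figure D4:**
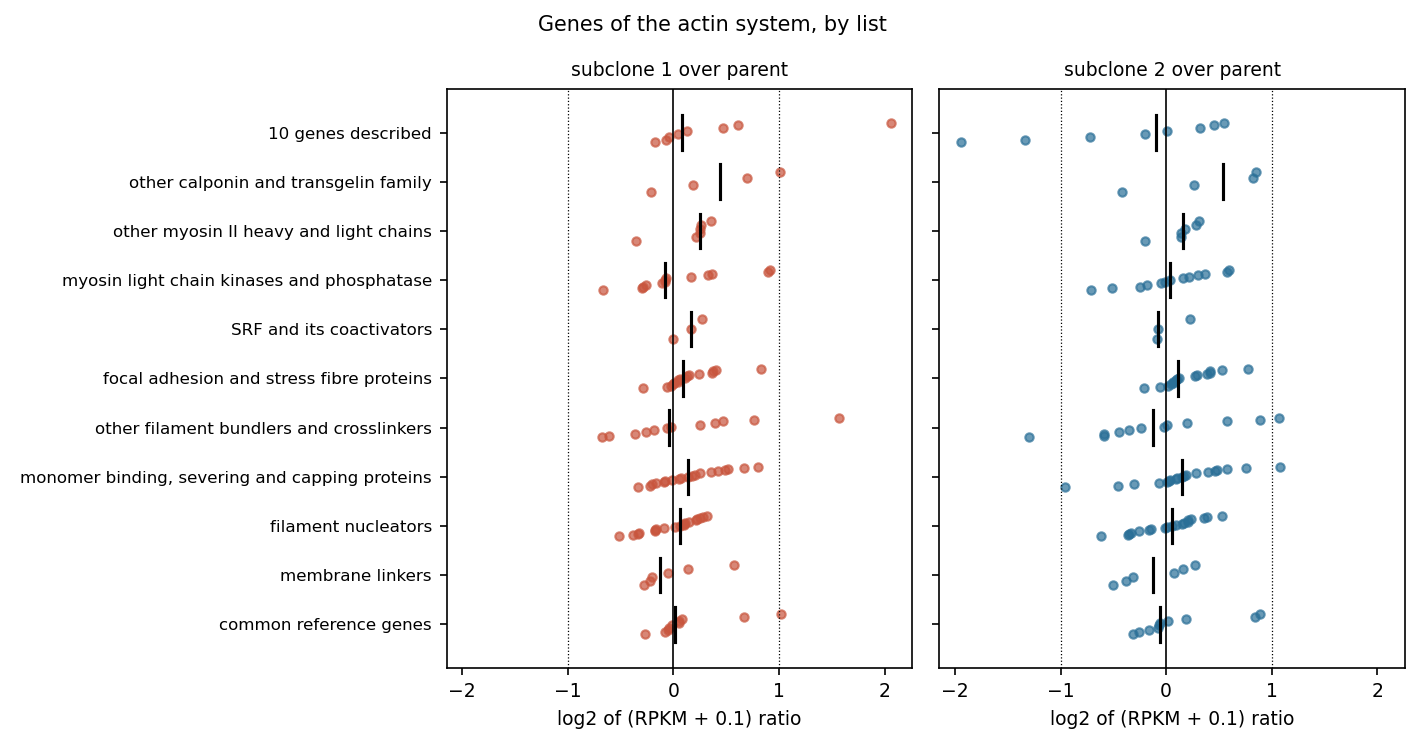
Log2 ratio over the parent of the tested genes of the actin system (points), by list where a list had 3 or more of them, and with the list's median as a black bar, on the scale of log2 of (RPKM + 0.1), for subclone 1 and subclone 2. Most points lie between the dotted lines at 2-fold, and MYL9 at 2.06 in subclone 1 and TAGLN at -1.95 in subclone 2 are the farthest from 0 in their panels.

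ACTB is a common reference for real-time PCR and was read beside 10 other genes used in this way. ACTB per GAPDH was 1.06-fold above the parent's in subclone 1 (1.03 to 1.08) and 1.05-fold higher in subclone 2 (1.02 to 1.08). Of these 10, GUSB alone was called, in subclone 1, with 18.4, 37.4 and 34.3 RPKM in the parent, subclone 1 and subclone 2. GAPDH had 4554, 4729 and 4359 RPKM and RPLP0 1284, 1236 and 1232 RPKM. The median of this list came to 0.02 for subclone 1 and to -0.06 for subclone 2, both over the parent.

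The study's primer list for real-time PCR holds a β-actin pair and, under another name, a pair for FSCN1. They are shown because the bases decide which of the actin mRNAs above such a pair would measure. The primers of the β-actin pair are written 5′ to 3′ with the bases that differ from the ACTB transcript in capitals.
β-actin forward: cacCatgaagatcaagatcattgc
β-actin reverse: ggccggactcAtcGtactcctgc
Counted from 1 at the 5′ end of each primer, with the primer's base first, the forward primer differs from ACTB by C4A and the reverse primer by A11G and G14A. Against ACTG1 the differences are T22C in the forward primer and G5C and A11G in the reverse primer. Both cytoplasmic actins thus differ from the pair by 1 and 2 bases, as ACTA1 also does (T22C, and A7C and A11G). Equal counts do not make the sites alike. In the forward primer of 24 bases, C4A lies near the 5′ end and T22C near the 3′ end. ACTC1 differs by 2 and 3 bases and ACTG2 by 1 and 6. What the pair amplifies was not tested. Against ACTA2 the forward primer has no difference and the reverse primer has 5. The site on ACTB gives a product of 131 bases from exons 5 and 6 (chr7:5527777-5528019, GRCh38, minus strand), and the sites on ACTG1 give the same length from exons 4 and 5. No GENCODE gene matched both primers without a difference.

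The pair listed under the name LRBP1 matched FSCN1 without a difference and no other gene.
LRBP1 forward: tcccgactgccgtttcct
LRBP1 reverse: tgacgctgtagatgttgacctg
Its product has 185 bases within exon 1 of FSCN1 (chr7:5593194-5593378, GRCh38, plus strand).

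In the GENCODE annotation of GRCh38, ACTB lies at chr7:5527147-5563784 and FSCN1 near it at chr7:5592823-5606655, with ACTB on the minus and FSCN1 on the plus strand. CALD1 is on the same chromosome at chr7:134744252-134970728. MYL9 lies at chr20:36541484-36551447, TAGLN at chr11:117199321-117204782, TPM1 at chr15:63042632-63071915 and TPM2 at chr9:35681992-35690121. ACTG1 lies at chr17:81509971-81523847, ACTA2 at chr10:88935074-88991339 and CNN1 at chr19:11538717-11550323. The deposited values were made on hg19, and no place was carried from one build to the other.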

How the data were processed

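RNA was taken from cultured cells with Trizol, and 1 ug of it entered an Illumina TruSeq RNA preparation, with 1 library per cell line. The authors deposited RPKM values by Entrez number and symbol, on the genome build hg19 per the submitters' processing notes. Aligner, counting tool, annotation and read length are not given in the sources used here. Genes at 0 are not listed and were set to 0.

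The members and lists were chosen with earlier results of these data known. Library totals were the largest at which 1 read gave a whole length in bases for most genes listed in only 1 library (85.8% to 89.4% of 435 to 513 genes). The smallest length with whole reads in each library was kept where plausible for a GENCODE transcript, or multiplied to come within 10% of one. Reads sharing a divisor may thus be too few, which widens an interval. The background was the 11370 genes averaging 1 RPKM or more, and 98.9% of them gave reads. Scripts were tested on simulated data. Ratios used a pseudocount of 0.1 RPKM. Changes in the ratio of 2 genes have exact conditional intervals of the odds ratio. With 1 library per group no test was run and no p-value computed. Named genes were all 10 members, and from each list the genes past 2-fold, the 2 highest by mean RPKM every gene of lists of 6 or fewer, and the 5 genes nearest to the member of widest range, with MYL12A added after its values were seen, as a relative of MYL9. The most abundant genes of the list on myosin light chain phosphorylation are not reported here. Protein sequences were not used here. Python 3.11.15, numpy 2.4.6, pandas 2.3.3, scipy 1.17.1 and matplotlib 3.10.9 were used. Alternatives are given in the closing section.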

Additional observations from a re-analysis of the deposited data

Results flagged for a closer look

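MYL9 had a value above the parent in subclone 1 and a value under it in subclone 2, where the fold of 0.356 has a counting interval that includes 1 (0.0609 to 1.48), so that the lower level was not detectable at this depth. The values come from 1 library of each line, and the difference between cell lines was not tested. Subclone 2 over subclone 1 gave a log2 ratio of -3.39, from 3 and 36 reads.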

How the results depend on the processing

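Ratios were taken again with a pseudocount of 0.01 or 1, after scaling by summed RPKM, by the median ratio, by the upper quartile, by GAPDH or by ACTB, without a filter, with a filter at 5 RPKM, and with calls at 1.5-fold. Calls by a counting interval that excludes 1 were added after seeing the data. Of 168 values of the ratios of the 8 genes under the pseudocounts and scalings, 144 stayed within the counting interval and 24 did not. TPM2 in subclone 1 and ACTB in subclone 2 over the parent changed sign under 2 and 3 of them, and no called ratio did. The values below are for subclone 1 over parent, subclone 2 over parent and subclone 2 over subclone 1. Beside 1, 2 and 2 members called, the count was 0 in each with the filter at 5 RPKM, since MYL9 and TAGLN then drop out. It was 1 in both comparisons of subclone 2 with a pseudocount of 1, where TAGLN alone stayed called over the parent and MYL9 alone over subclone 1. Without a filter it was 2, 3 and 2 (CNN1 added in both comparisons with the parent), and at 1.5-fold 2, 3 and 2 (TPM1 added for subclone 1 and FSCN1 for subclone 2 over the parent). By interval it was 5, 6 and 7. The calls of CNN1 come from 2 reads in the parent against 0 in each subclone. They depend on the pseudocount, and their counting intervals include 1. Beside 764, 852 and 319 called among all genes, the counts were 464, 530 and 157 with a pseudocount of 1, 2407, 2494 and 1744 without a filter, 304, 346 and 89 with the filter at 5 RPKM, 2165, 2274 and 1007 at 1.5-fold, and 4384, 4574 and 2250 by interval. The median of the 8 genes moved from 0.09 to -0.0460 in subclone 1 over parent with division by ACTB, and from -0.15 to -0.0313 and -0.0233 in subclone 2 over subclone 1 with GAPDH and ACTB. Such a division shifts the ratios of nearly all genes by about the same amount, so that the median over all genes moves too. Division by ACTB lowered every ratio of subclone 1 over parent by the 0.13 of ACTB itself and took the higher genes from 72.9% to 57.8% of those called in subclone 1 over parent, and from 50.5% to 64.0% in subclone 2 over subclone 1, where GAPDH gave 62.6%. Of 210 medians of the other lists, 30 moved by 0.1 or more. No paired analysis was possible because there is only 1 library of each line, which also leaves no replicate to omit. Depth limits TAGLN, MYL9 and CNN1 most, with 0 to 36 reads.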
